A study of Mus musculus with 30 samples.

Results

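Loss of the retinoblastoma gene in intestinal villi was read from 5 arrays of Rb KO villi against 5 arrays of control villi, 10 of the 30 arrays in the study. The members are the arrays carrying these titles, and all 14548 genes tested were included. In Rb KO mice Rb was deleted with Ah-cre, an inducible Cre recombinase active in the intestine, and villi of mice 2 months old were taken 5 days after the ablation. Control villi came from mice of the same age, and the labels say neither whether the controls carried Cre nor whether they received the inducer. They also do not give the strain, the share of cells that recombined, or whether an array held tissue of 1 animal. The rest of the study was made up of Rb/Myc DKO villi, in which Myc was deleted too and which shared the fit, and crypts of the 3 genotypes, with 5 arrays in each group.

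The retinoblastoma protein holds the E2F transcription factors in check and so keeps genes of DNA synthesis and mitosis silent in cells that have stopped dividing. In the small intestine division is confined to the crypts, where stem cells and Paneth cells sit at the base, and cells stop dividing as they move onto the villus and take up absorption, digestion and secretion. Villi stripped from the tissue can bring crypt pieces along, so genes of the crypt base and genes of the cell cycle are set side by side here.

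Levels are the deposited log2 values, listed for arrays 1 to 5 of a group, and a difference is Rb KO minus control on the log2 scale with its SE from limma (n = 5 arrays a group). The p-values of single genes come from limma, are two-sided and are adjusted over all genes by Benjamini-Hochberg, with a threshold of 0.05. Groups are called apart where every array of one lies beyond every array of the other. Over all genes tested 14.7% were higher and 15.8% lower, and a list count near these shares does not set the list apart. Replicates are not stated to be separate animals, and the p-values then reflect only how these arrays spread. Where 5 or fewer members of a list passed in a direction all of them are named, except 1 lower gene of the replication list. Some were picked after their values were seen. Of 99 counts of 5 or fewer, counts of 0 included, 57 moved by over 1.5 times when 1 array was left out. Any change from or to 0 was taken as such a move. Small counts are read as values of single genes. The tissue is bulk, and fewer cells of a type cannot be told apart from less RNA in each cell.

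Rb1, the targeted gene, stood at 8.34, 8.19, 8.30, 8.28 and 8.23 in Rb KO villi, against 9.14, 9.38, 10.21, 10.01 and 9.93 in control villi. All Rb KO arrays lay in a narrow band below every control array, and the difference was −1.46 ± 0.16 (adjusted p = 6.99e-06). Both probe sets fell. Whether they lie in the deleted exons was not examined, and the signal that is left cannot be read as residual Rb1.

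Promoters were read for the letters that E2F proteins are known to bind, because genes of the cell cycle and beyond it moved together. The motifs searched were TTTCCCGC, TTTCGCGC, TTTGCCGC and TTTGGCGC on both strands, in 250 bases before and 50 after the start of each gene in the RefSeq promoter table of GRCm38.p6. A promoter with a match was found for 55 of 312 genes at least 2-fold higher in Rb KO villi (17.6%) and for 0 of 80 genes at least 2-fold lower. At any size of difference it was found for 174 of 1788 higher genes (9.7%) and 51 of 1871 lower genes (2.7%). Among genes called in neither direction it was 262 of 8001 (3.3%), near the share of the lower genes. Outside the cell cycle lists the share among genes at least 2-fold higher was 22 of 154 (14.3%), against 487 of 11660 genes tested (4.2%) and 744 of 32851 promoters in the table (2.3%). Of 127 named genes that were higher with the groups apart, 110 had a promoter in the table and 10 held a match in the 200 bases before the start. Promoters of 1 chromosome were left out of that last search, so the 10 may be too few. The share over all genes was not taken for this shorter window. Of the promoters with a match, 6 are printed 5′ to 3′ on the gene's own strand, with the motif or its reverse complement in capitals. They include both promoters of Zfp367, the largest rise outside the cell cycle lists among genes ranked without clone or predicted-gene symbols. The others belong to the helicase subunit Mcm6, the methylation reader Uhrf1, the lamina protein gene Tmpo and the checkpoint gene Topbp1, whose levels follow.
Zfp367, chr13:64153200-64153399, minus strand: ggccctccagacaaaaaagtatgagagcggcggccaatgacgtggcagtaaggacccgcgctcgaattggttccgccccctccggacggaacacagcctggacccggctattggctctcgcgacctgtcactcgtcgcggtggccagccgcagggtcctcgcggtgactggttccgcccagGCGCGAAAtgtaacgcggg
Zfp367, chr13:64152374-64152573, minus strand: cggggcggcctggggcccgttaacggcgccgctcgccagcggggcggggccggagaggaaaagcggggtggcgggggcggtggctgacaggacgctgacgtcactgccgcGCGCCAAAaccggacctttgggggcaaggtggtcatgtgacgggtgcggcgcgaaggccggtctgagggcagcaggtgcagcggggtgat
Mcm6, chr1:128359706-128359905, minus strand: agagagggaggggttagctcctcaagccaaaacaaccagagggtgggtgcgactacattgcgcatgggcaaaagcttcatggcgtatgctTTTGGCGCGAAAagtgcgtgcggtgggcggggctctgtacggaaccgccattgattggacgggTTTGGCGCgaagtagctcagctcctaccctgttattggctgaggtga
Uhrf1, chr17:56304113-56304312, plus strand: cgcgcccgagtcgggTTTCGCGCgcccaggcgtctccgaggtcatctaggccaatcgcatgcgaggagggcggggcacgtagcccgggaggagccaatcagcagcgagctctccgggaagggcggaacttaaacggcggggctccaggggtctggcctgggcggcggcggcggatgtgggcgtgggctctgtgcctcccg
Tmpo, chr10:91170551-91170750, minus strand: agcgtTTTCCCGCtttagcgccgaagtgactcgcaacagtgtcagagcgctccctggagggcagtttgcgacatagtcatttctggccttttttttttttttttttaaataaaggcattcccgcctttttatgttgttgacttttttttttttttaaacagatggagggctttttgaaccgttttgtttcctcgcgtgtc
Topbp1, chr9:103305127-103305326, plus strand: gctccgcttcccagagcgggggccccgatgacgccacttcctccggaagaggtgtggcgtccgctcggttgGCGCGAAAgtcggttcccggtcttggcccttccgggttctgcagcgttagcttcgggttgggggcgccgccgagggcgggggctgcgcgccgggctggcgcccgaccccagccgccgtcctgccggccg
In the Mcm6 promoter 3 matches were found, and the first match, TTTGGCGC, overlaps the next, GCGCGAAA, in 1 run of capitals. A match is a description of the letters and no evidence that a protein binds there.

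A large part of the genes measured differed between Rb KO villi and control villi. The labels do not state Cre, inducer or strain for the controls, and effects of these cannot be told apart from Rb loss. In all, 4433 of 14548 genes passed the threshold (30.5%), of which 2140 were higher (14.7%) and 2293 lower (15.8%) in Rb KO villi. At least 2-fold differences were mostly rises, with 372 genes higher (2.56%) and 97 lower (0.667%). The groups were apart for 1438 genes higher (9.88%) and 1281 genes lower (8.81%) in Rb KO villi. The median difference over all genes was −0.02. With the GAPDH 3′ minus 5′ reading described next as a covariate, 1791 genes were higher and 1522 lower.

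Villus arrays had medians between 6.28 and 6.34 and correlated at 0.987 to 0.9949 within a group and 0.9729 to 0.9892 between the groups. RNA integrity can be read from the GAPDH control probe sets, whose 3′ minus 5′ difference was −0.051 ± 0.044 in Rb KO villi and −0.139 ± 0.041 in control villi (SD, n = 5 each). The difference of 0.0873 had p = 0.00794 in an exact two-sided permutation test over 252 splits, the smallest p these arrays allow. For the actin control it was 0.064 (exact permutation p = 0.0556). The GAPDH reading lay between −0.090 and 0.012 on Rb KO arrays and between −0.211 and −0.112 on control arrays, without overlap. As a covariate it is therefore bound up with genotype, and a call lost in that fit cannot be assigned to either. Rb KO arrays 4 and 5 stood apart from Rb KO arrays 1 to 3 in an index of clock genes, at −1.642 and −1.510 beside 0.231 to 1.245, with control arrays between −1.367 and −0.106. Control arrays 1 and 4 and Rb KO array 3 had high Xist, the RNA of the inactive X chromosome.

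Crypt markers differed more among arrays of 1 genotype than between genotypes. Lgr5, a receptor on crypt base stem cells, stood at 6.44, 6.65, 6.17, 6.83 and 6.57 in Rb KO villi, against 6.92, 6.33, 6.50, 7.27 and 6.29 in control villi. The highest level was on control array 4 and the lowest on Rb KO array 3, the groups overlapped, and the difference was −0.13 ± 0.18 (adjusted p = 0.623). Olfm4, a secreted stem cell protein, stood at 10.80, 10.73, 9.28, 11.79 and 11 in Rb KO villi, against 11, 8.58, 10.50, 11.73 and 9.04 in control villi (0.55 ± 0.56, adjusted p = 0.502). Lyz1, the lysozyme of Paneth cells, stood at 13.25, 12.83, 13.02, 13.81 and 13.16 in Rb KO villi, against 12.97, 11.52, 12.54, 13.72 and 11.52 in control villi (0.76 ± 0.34, adjusted p = 0.114). In both of these genes Rb KO array 4 and control array 4 were the highest, and control arrays 2 and 5 were the lowest of all 10.

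The 6 other crypt genes named for this reading did not pass either. Itln1, an intelectin of Paneth and goblet cells, differed by 1.14 ± 0.49 (adjusted p = 0.0916), the stem cell gene Smoc2 by 0.66 ± 0.43 (adjusted p = 0.278) and the chloride cotransporter gene Slc12a2 by 0.56 ± 0.49 (adjusted p = 0.432). The Paneth cell genes Mmp7 and Ang4 differed by 0.35 (adjusted p = 0.46) and 0.19 (adjusted p = 0.784), and Ascl2, the transcription factor of stem cells, by −0.01 (adjusted p = 0.973). Whether several of the crypt markers passed, Lyz1 among them, depended on the arrays and terms in the fit. Without control array 4 Lyz1 was higher by 1.07 (adjusted p = 0.00936), Itln1 by 1.57 (adjusted p = 0.00877) and Smoc2 had an adjusted p of 0.037, while Olfm4 (adjusted p = 0.19) and Lgr5 (adjusted p = 0.931) did not pass. Without control arrays 1 and 4, the adjusted p was 0.00115 for Lyz1, 0.000554 for Itln1, 0.0605 for Olfm4 and 0.433 for Lgr5, and Slc12a2 (adjusted p = 0.027) and Mmp7 (adjusted p = 0.0391) passed too. Control arrays 4 and 1 were the highest control arrays in Lgr5, Olfm4 and Lyz1. Leaving them out lowers the control mean of such markers by construction, and these p-values are no test of a rise in crypt markers. With all arrays kept, Lyz1 passed with Xist status as a covariate (adjusted p = 0.0322) and with the GAPDH reading as a covariate (1.61, adjusted p = 0.0163). Itln1 passed in the same fits (adjusted p = 0.015 with Xist status and 0.0289 with the GAPDH reading, where it differed by 2.16), and Smoc2 with the GAPDH reading (1.83, adjusted p = 0.02). Lgr5 and Olfm4 passed in neither fit. Control arrays 1 and 4 were the control arrays with high Xist, and control array 4 had the lowest GAPDH reading (−0.211). Both covariates thus fall together with the control arrays highest in crypt markers, and these fits are no separate test of a rise either.

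Cell cycle genes separated the genotypes on every array. Mki67, which marks cells in cycle, stood at 11.14, 10.84, 10.97, 11.50 and 11.34 in Rb KO villi, against 8.54, 7.07, 8.06, 9.18 and 7.21 in control villi. The groups were apart, and the difference was 3.14 ± 0.34 (adjusted p = 5.96e-06). Mcm6, a subunit of the replicative helicase, stood at 11.51, 11.81, 11.71, 11.92 and 11.74 in Rb KO villi, against 8.76, 7.39, 8.04, 8.90 and 8.55 in control villi (3.41 ± 0.22, adjusted p = 1.8e-08). Control arrays 4 and 1, the higher ones in Lgr5, were also the highest control arrays in both genes, but lay far below Rb KO array 3, which had the lowest Lgr5 of all.

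**Figure D1:**
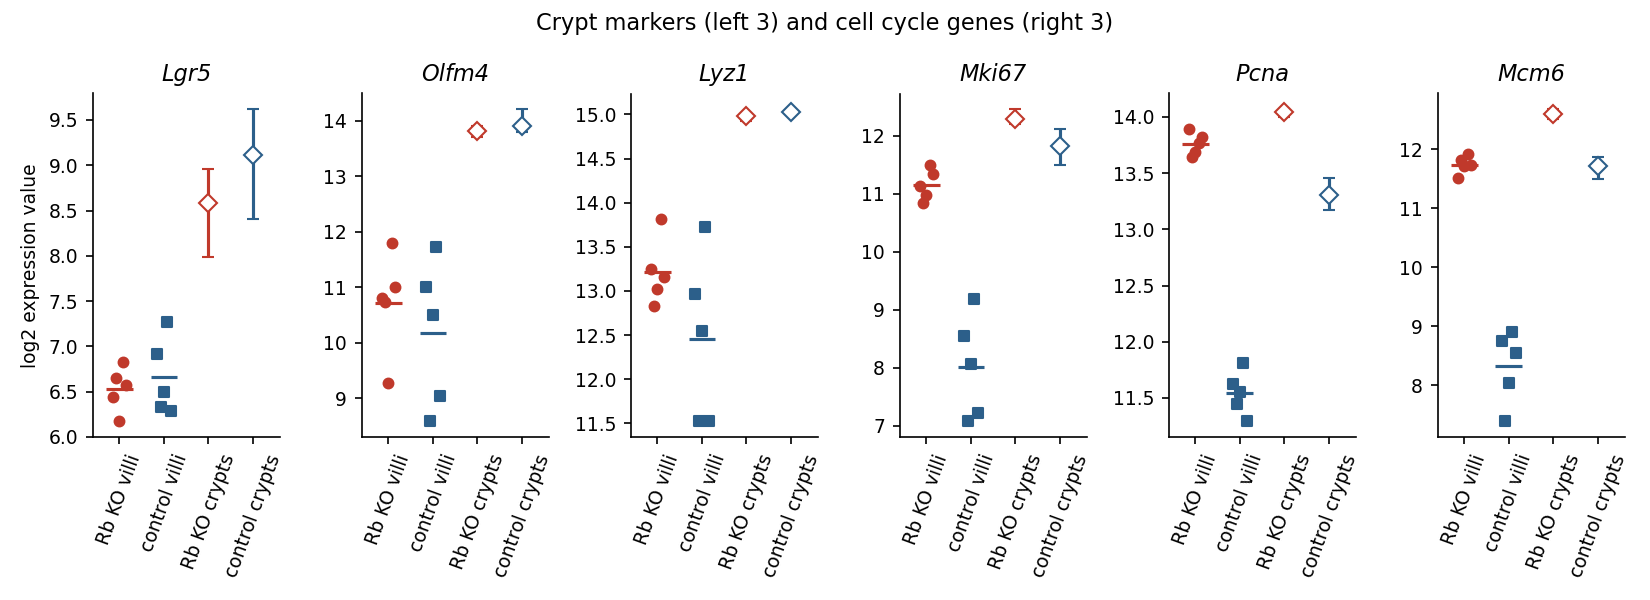
Log2 levels of the crypt markers Lgr5, Olfm4 and Lyz1 (left 3 panels) and of the cell cycle genes Mki67, Pcna and Mcm6 (right 3 panels). Points are the Rb KO and control villus arrays, with lines at group means. Open diamonds with bars give the mean and range of the 5 arrays of Rb KO crypts and control crypts, which appear to have been normalized apart from villi. Villus groups overlap in the crypt markers and are apart in the cell cycle genes, where Mki67 averages 12.29 in Rb KO crypts and 11.83 in control crypts.

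Crypt arrays show how far villus levels lay from crypt levels, although the tissues appear to have been normalized separately and no test was made across them. Lgr5 averaged 8.58 in Rb KO crypts and 9.11 in control crypts, and Lyz1 averaged 14.98 in Rb KO crypts and 15.03 in control crypts, above every villus array. Mki67 on Rb KO villus arrays reached at most 11.50, against means of 12.29 in Rb KO crypts and 11.83 in control crypts. Pcna, the clamp of DNA polymerase, lay between 13.64 and 13.89 in Rb KO villi, above the 13.17 to 13.46 of control crypts and below the mean of 14.04 in Rb KO crypts. Mcm6 averaged 12.59 in Rb KO crypts and 11.71 in control crypts, and the control crypt mean lay within the range of Rb KO villi.

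A crypt score put the carry-over of each array into 1 number, the mean of 9 crypt markers (Lgr5, Olfm4, Lyz1, Itln1, Smoc2, Slc12a2, Mmp7, Ang4 and Ascl2) after centring each on the 15 villus arrays. It was 0.118, −0.160, −0.509, 0.781 and 0.077 in Rb KO villi, against 0.041, −1.328, −0.389, 0.925 and −1.199 in control villi. The replication score, the mean of 81 replication genes minus the control mean, was 1.813, 1.556, 1.566, 1.778 and 1.759 in Rb KO villi, against 0.028, −0.238, −0.002, 0.404 and −0.192 in control villi. The mitosis score of 230 genes was 1.178, 0.954, 0.962, 1.380 and 1.348 in Rb KO villi, against 0.055, −0.284, 0.031, 0.425 and −0.228 in control villi. Within each genotype the arrays with more crypt signal tended to have more cell cycle signal, while at a like crypt score the Rb KO arrays stood more than 1 log2 unit higher in replication. Control array 4 had the highest crypt score of all 10 arrays, and Rb KO array 3 the lowest among Rb KO arrays, yet their replication scores were 1.566 on Rb KO array 3 and 0.404 on control array 4.

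**Figure D2:**
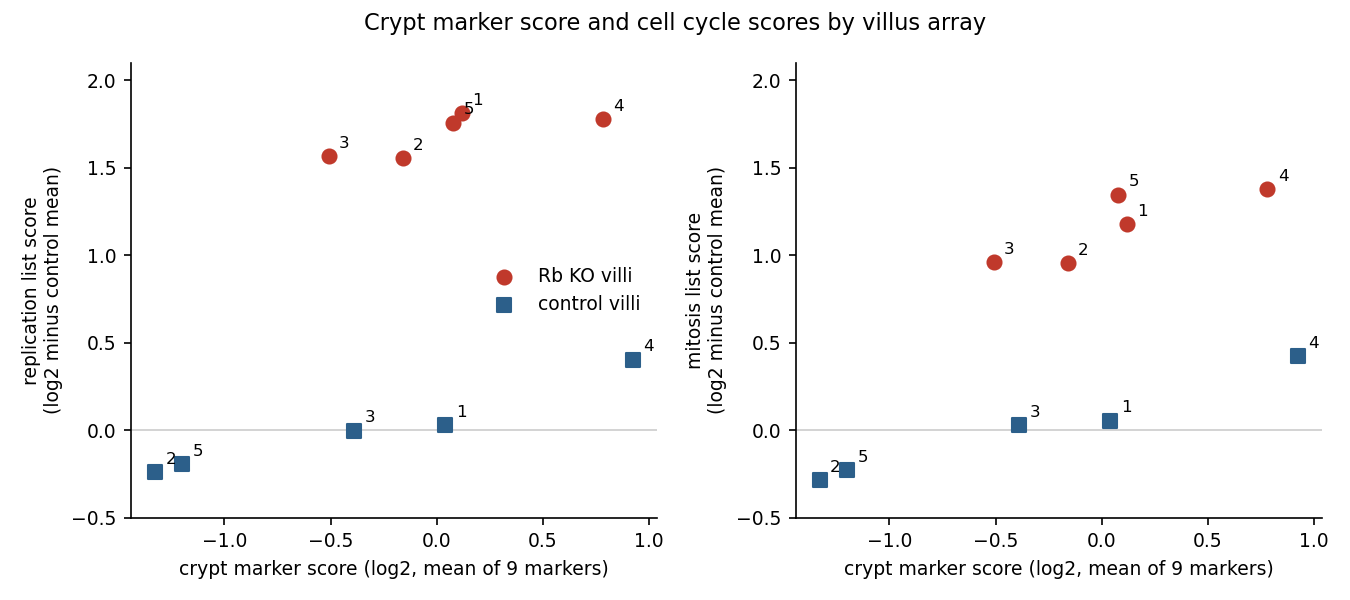
Crypt marker score (x axis, log2 mean of 9 markers centred on the villus arrays) against the replication score (left) and the mitosis score (right; both y axes log2 relative to the control mean), 1 point an array with its replicate number. Rb KO arrays lie between 1.556 and 1.813 for replication and control arrays between −0.238 and 0.404, while their crypt scores overlap.

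With the 9-gene crypt score as a covariate, most calls were the same. Of 2140 genes higher in Rb KO villi, 1976 (92.3%) were still called higher, as were 370 of the 372 genes at least 2-fold higher, whose median difference moved to 1.298, from 1.464 without the covariate. Of 2293 lower genes 2019 (88.1%) were still called lower, and 93 of the 97 at least 2-fold lower. A score of Lgr5, Olfm4 and Lyz1 alone gave 2001 higher and 2047 lower genes. The replication list had a median difference of 1.571, against 1.488 with the 9-gene score and 1.494 with the 3-gene score, and the mitosis list of 1.131, against 0.946 and 0.968. Mki67 differed by 2.77 and Mcm6 by 3.24 with the 9-gene score. With these covariates, which contain the genes themselves, Lyz1 and Itln1 were called higher and Lgr5 lower (adjusted p = 0.00397 with 9 genes and 0.00333 with 3).

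Genes higher in Rb KO villi were largely genes that control crypts hold above control villi. This was so for 2022 of the 2140 higher genes (94.5%), against 1227 of the 2293 lower genes (53.5%) and 11260 of all 14548 genes (77.4%), all read across tissues that appear to have been normalized apart. All arrays of Rb KO villi lay above all arrays of both crypt groups for 92 of the higher genes (4.3%), against 1134 of all 14548 genes (7.8%), so this was no more frequent among the higher genes.

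The list of cell cycle regulators held 16 higher and 4 lower of 29 members. Its lower members were Rb1, the related pocket protein gene Rbl2 (−0.93 ± 0.14, adjusted p = 9.51e-05), Cdkn1b, the inhibitor p27 (−0.86 ± 0.16, adjusted p = 0.000693), and Ccng2, a cyclin of resting cells (−0.87 ± 0.20, adjusted p = 0.00396), all but Rb1 picked after their values were seen. Rbl2 stood at 8.13, 8.38, 8.02, 7.45 and 7.91 in Rb KO villi, against 8.58, 9.14, 8.99, 8.95 and 8.90 in control villi. The groups were apart, with Rb KO array 4 the lowest. For Cdkn1b 1 of its 2 probe sets differed in this direction and the arrays overlapped.

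In homologous recombination and the Fanconi pathway 25 of 36 members were higher and 0 lower in limma, also at an unadjusted p under 0.05, with a list median of 0.46. Brca1, which directs repair of broken DNA, stood at 9.39, 8.81, 8.99, 9.20 and 9 in Rb KO villi, against 5.55, 5.28, 6.03, 6.32 and 5.32 in control villi. All 5 Rb KO arrays lay more than 2 log2 units above the highest control array, and the difference was 3.38 ± 0.19 (adjusted p = 5.52e-09). The repair helicase gene Helq (1.18 ± 0.09), the recombination gene Rad54l (1.41 ± 0.13) and the end-processing nuclease gene Mre11a (0.94 ± 0.09) were higher as well. Of the 8 members outside the cell cycle lists 4 were higher.

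In mismatch and excision repair 14 of 30 members were higher and 4 lower, and outside the cell cycle lists 10 of 26 were higher. Msh6, which recognises mismatched bases, was higher by 2.09 ± 0.11 (adjusted p = 3.13e-09) and its partner in later steps Pms2 by 0.70 ± 0.07. The nucleotide excision genes differed in direction: Ddb2, a sensor of ultraviolet damage, was higher by 0.87 ± 0.10, while Xpa, a damage verifier, was lower at −0.71 ± 0.08 (adjusted p = 5.75e-06). The other lower members, picked after their values were seen, were Xpc, Ercc3 and Neil1, at −0.29, −0.29 and −0.33.

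The DNA damage checkpoint list had 15 of 20 members higher and 0 lower in limma, also at an unadjusted p under 0.05, with a median of 0.94. Clspn, which passes the signal of stalled forks, stood at 9.43, 8.99, 9.19, 9.42 and 9.37 in Rb KO villi, against 6.01, 6.29, 6.24, 6.77 and 6.53 in control villi (2.91 ± 0.21, adjusted p = 9.44e-08). The groups were apart by more than 2 log2 units. Topbp1, the activator of the kinase ATR whose promoter is printed above, was higher by 2.04 ± 0.17 and the checkpoint kinase Chek1 by 1.63 ± 0.14. Of the 12 members outside the cell cycle lists 7 were higher.

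Genes that copy DNA methylation and set repressive chromatin had 19 of 34 members higher and 2 lower. Uhrf1, which brings the methyltransferase to new DNA, stood at 9.57, 9.38, 9.52, 9.35 and 9.48 in Rb KO villi, against 7.20, 6.05, 6.46, 7.51 and 5.88 in control villi. Rb KO arrays differed little among themselves while control arrays spread with their crypt scores, and the difference was 2.84 ± 0.27 (adjusted p = 1.39e-06). The maintenance methyltransferase Dnmt1 was higher by 2.46 ± 0.15, the remodeller Hells by 2.92 ± 0.29 and the heterochromatin protein gene Cbx5 by 1.72 ± 0.15. Within polycomb, the methyltransferase Ezh2 was higher by 1.64 ± 0.11 (adjusted p = 2.89e-08), whereas its paralog Ezh1, known from resting cells, was lower at −0.42 ± 0.12 (adjusted p = 0.0166). Ezh1 and the other lower member, Cbx8 (−0.43 ± 0.06), were picked after their values were seen, and Ezh1 did not pass without Rb KO arrays 4 and 5 (adjusted p = 0.0821). In 15 of 29 members outside the cell cycle lists the level was higher.

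Histone chaperones and chromatin assembly factors had 22 of 28 members higher and 0 lower in limma, also at an unadjusted p under 0.05, with a median of 0.72. Dek, a chromatin architecture gene, stood at 12.41, 12.20, 12.09, 12.32 and 12.37 in Rb KO villi, against 9.90, 9.84, 10.09, 10.49 and 9.90 in control villi (2.23 ± 0.11, adjusted p = 2.86e-09). Hat1, which acetylates new histones, was higher by 2.22 ± 0.12 and the chaperone Asf1b by 2.04 ± 0.19. Outside the cell cycle lists 14 of 20 were higher, and 0 of the 25 members with a promoter in the table held an E2F motif in it. H1f2, a linker histone, went the other way at −1.72 ± 0.17 (adjusted p = 1.75e-06), with 9.82, 9.81, 9.89, 9.65 and 9.88 in Rb KO villi, against 11.39, 11.90, 11.52, 11.34 and 11.48 in control villi.

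In the lamina and envelope list 6 of 16 members were higher, 3 of them outside the cell cycle lists, and 1 lower, Sun2 (−0.29 ± 0.07, picked after its values were seen). Tmpo, a lamina protein gene, stood at 11.39, 11.34, 11.36, 11.40 and 11.66 in Rb KO villi, against 9.30, 8.37, 9.05, 9.81 and 8.57 in control villi (2.41 ± 0.23, adjusted p = 1.29e-06). Lbr, the lamin B receptor, was higher by 1.90 ± 0.20 and Lmna, the lamin of differentiated cells, by 0.64 ± 0.12. Of 43 nuclear pore and transport genes 30 were higher, 27 of them outside the cell cycle lists, with a median of 0.62. The pore subunit Nup85 was higher by 1.6 ± 0.14 and the import receptor Ipo9 by 1.01 ± 0.09, and the 1 lower member was the import receptor Ipo4 (−0.41 ± 0.12, picked after its values were seen).

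Splicing factors were higher in 36 of 47 cases and lower in 0 in limma, also at an unadjusted p under 0.05, and 0 of them are in the cell cycle lists. Their median was 0.42, and 33 were called higher with the 9-gene crypt score. U2af1, which finds the 3′ splice site, stood at 11.15, 10.75, 10.79, 11.25 and 11.03 in Rb KO villi, against 10.09, 9.32, 9.76, 10.23 and 9.69 in control villi (1.18 ± 0.15, adjusted p = 3.11e-05). Hnrnpab, an RNA packaging protein gene, was higher by 0.81 ± 0.10 and Snrpb, a core protein of the spliceosome, by 0.85 ± 0.13.

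**Figure D3:**
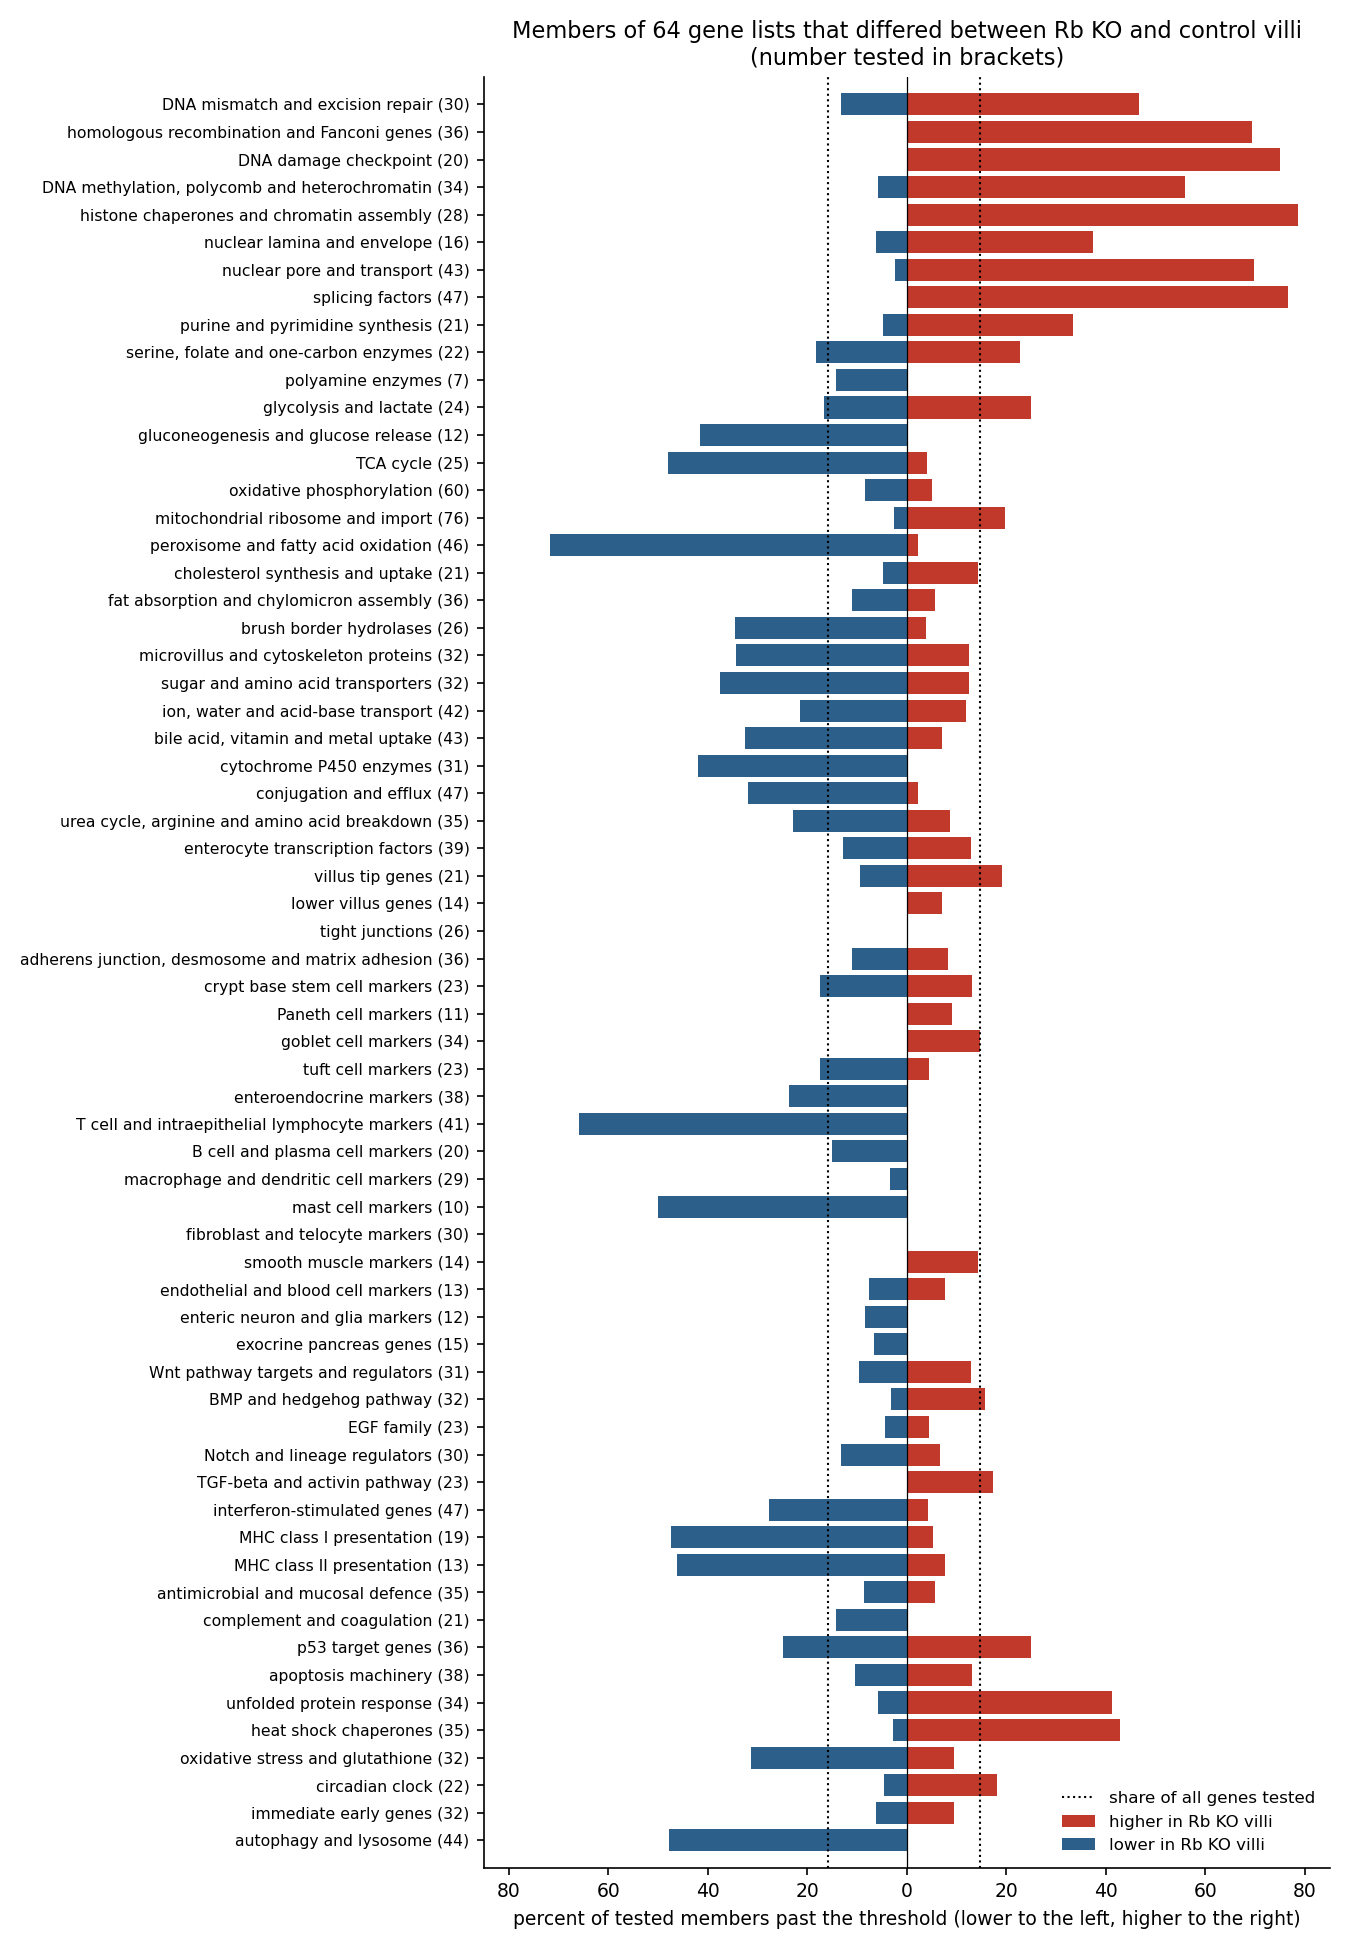
Percent of tested members of 64 gene lists outside the 3 cell cycle lists that were higher (right) or lower (left) in Rb KO villi than in control villi, with the number tested in brackets; dotted lines mark the share of all genes, 14.7% higher and 15.8% lower. Histone chaperones, splicing factors and checkpoint genes reach furthest to the right, and fatty acid oxidation and T cell markers furthest to the left.

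The largest differences outside the cell cycle lists were found in genes of several functions. They were ranked among genes with the groups apart, leaving out clone and predicted-gene symbols. Zfp367, a zinc finger gene with E2F motifs in both its promoters, stood at 9.87, 9.22, 9.39, 9.31 and 9.18 in Rb KO villi, against 5.95, 5.48, 6.05, 6.63 and 5.80 in control villi. The groups were apart by more than 2 log2 units, and the difference was 3.41 ± 0.18 (adjusted p = 3.24e-09). Plp2, a membrane protein gene, was higher by 2.82 ± 0.28, the peroxiredoxin Prdx4 of the endoplasmic reticulum by 2.43 ± 0.25 and Lonrf3 by 2.39 ± 0.14. Eno3, the enolase of muscle, was higher by 2.28 ± 0.24, Bcl2l15, a relative of the apoptosis regulator BCL2, by 2.12 ± 0.35 and the histone cochaperone gene Dnajc9 by 2.05 ± 0.11.

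Among these 20 rises Eno3, Bcl2l15, Anxa10 and Gsn averaged more in Rb KO villi than in crypts of either genotype, across tissues that appear to have been normalized apart. Gsn, which cuts actin filaments, stood at 11.24, 10.99, 11.33, 10.43 and 10.47 in Rb KO villi, against 9.15, 9.40, 9.23, 9.25 and 8.43 in control villi. The lowest Rb KO array was 1 log2 unit above the highest control array, and the difference was 1.80 ± 0.20 (adjusted p = 6.31e-06), with the same sign in all 6 probe sets. It averaged 9.36 in Rb KO crypts and 8.42 in control crypts. Anxa10, an annexin of the stomach lining, was higher by 1.92 ± 0.26 (adjusted p = 4.84e-05) and averaged 5.40 in Rb KO crypts and 4.87 in control crypts, and Eno3 averaged 9.07 in Rb KO crypts and 8.27 in control crypts. Bcl2l15 averaged 10.66 in Rb KO villi, against 10.07 in Rb KO crypts and 8.21 in control crypts. The other genes among the 20 largest rises were Zfp948 (2.05), Trpc2 (1.99), Tmem109 (1.99), Tgm2 (1.90), Cibar1 (1.90), Dhrs13 (1.88), Ccp110 (1.87), Zfp934 (1.83) and Tmem107 (1.82), with the groups apart in each.

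Falls were ranked in the same way, among genes whose groups were apart, which leaves out H2-Q2 and Pck1. Ubd ranked first, at −2.8 to −2.12 when 1 array was left out. Cubn came next, followed by Slc5a4a (−2.31 to −1.89) and Aqp8 (−2.34 to −1.87), ranges again with 1 array left out. Cubn, which takes up vitamin B12 with its carrier, stood at 7.95, 7.85, 9.26, 8.58 and 8.57 in Rb KO villi, against 11.57, 10.81, 10.92, 11.28 and 9.33 in control villi. Only control array 5 came near the Rb KO range, and the difference was −2.34 ± 0.36 (adjusted p = 0.000146). Slc15a2, a peptide transporter, was lower at −1.67 ± 0.34 and Pdk2, a kinase that shuts off pyruvate dehydrogenase, at −1.35 ± 0.10 (adjusted p = 1.63e-07). Ttc30b, a gene of ciliary transport, was lower at −1.83 ± 0.37, with 6.45, 6.06, 5.90, 6.15 and 6.21 in Rb KO villi, against 6.85, 7.17, 8.71, 8.35 and 8.85 in control villi. Control arrays 1 and 2 lay nearer to Rb KO than to the other control arrays. Celf5 (−1.44), Slc6a20b (−1.44), Ndrg1 (−1.35) and Sectm1a (−1.34) were lower too, and with the GAPDH reading as a covariate Slc15a2 (−1.49, adjusted p = 0.0504), Slc6a20b (−0.83, adjusted p = 0.11) and Ndrg1 (−0.77, adjusted p = 0.0537) did not pass.

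**Figure D4:**
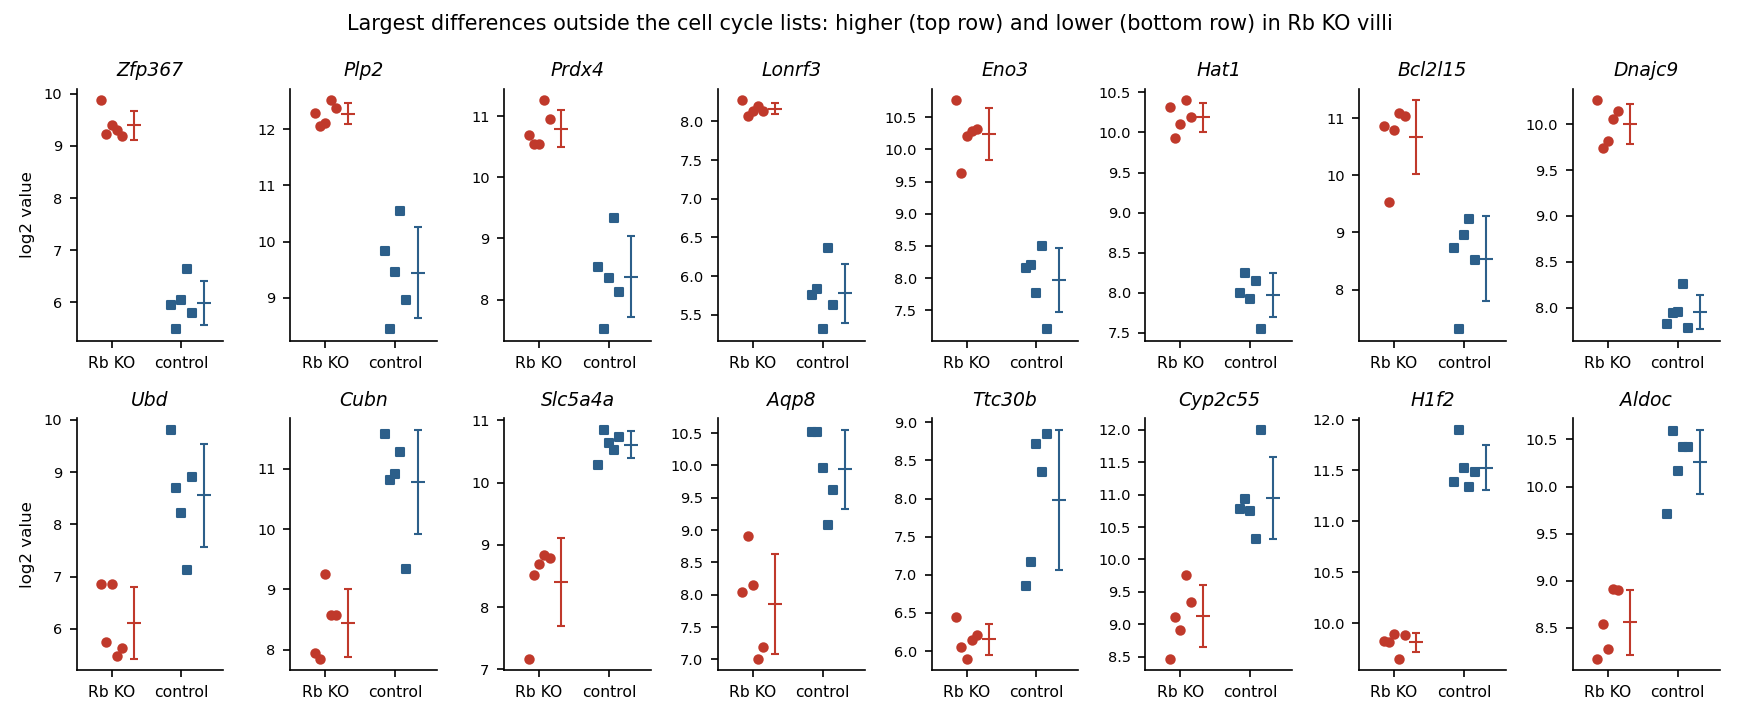
Log2 levels on each array of Rb KO villi (left in each panel) and control villi (right) for the 8 largest rises (top row) and the 8 largest falls (bottom row) outside the cell cycle lists, with group mean ± SD beside the points; axes do not start at 0 and differ between panels. Clone and predicted-gene symbols were left out. Genes were chosen among those with the groups apart, which leaves out larger falls with overlapping arrays such as H2-Q2. Zfp367, the largest rise, differs by 3.41, and Cubn, which ranks next after Ubd among the falls, by −2.34.

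Fatty acid oxidation was the metabolic pathway with the most lower members. Of 46 genes of the peroxisome and of fatty acid oxidation 33 were lower and 1 higher, Acox2 (0.51 ± 0.19, adjusted p = 0.0469, picked after its values were seen), with a list median of −0.38. The list score was −0.390, −0.344, −0.442, −0.415 and −0.362 in Rb KO villi, against −0.044, 0.003, 0.000, 0.003 and 0.037 in control villi. Acads, the dehydrogenase for short fatty acids, stood at 9.36, 9.56, 9.37, 9.24 and 9.33 in Rb KO villi, against 10.19, 10.20, 10.07, 10.18 and 10.17 in control villi. Both groups were tight and apart, and the difference was −0.79 ± 0.06 (adjusted p = 1.1e-07).

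Lower members lay at several steps of the pathway. Cpt2, which loads fatty acids inside the mitochondrion, was lower at −0.64 ± 0.08 (adjusted p = 1.61e-05), and Cpt1a, the entry step, at −0.53 ± 0.11 (adjusted p = 0.00186). The dehydrogenases Acadm (−0.37 ± 0.05) and Acadvl (−0.27 ± 0.05) and the trifunctional enzyme genes Hadha (−0.45 ± 0.08) and Hadhb (−0.39 ± 0.07) were lower. In the peroxisome Ehhadh was lower at −0.89 ± 0.12, Decr2 at −1.01 ± 0.10 and the oxidase Acox3 at −1.50 ± 0.22. Ppara, the fatty acid sensor that drives these genes, was lower at −0.60 ± 0.20 (adjusted p = 0.0282), with control array 4 the highest. It did not pass without control array 4 (adjusted p = 0.0514), control array 2 (adjusted p = 0.0623) or Rb KO array 3 (adjusted p = 0.0587), 4 (adjusted p = 0.0578) or 5 (adjusted p = 0.0617), nor with the GAPDH reading as a covariate (−0.29, adjusted p = 0.501). Cpt1a, Acadvl, Hadha, Hadhb and Ppara were picked after their values were seen. Once the GAPDH reading was a covariate 16 of the 46 genes were lower, with a list median of −0.35, among them Acads, Decr2, Cpt2 and Ehhadh, while Cpt1a had an adjusted p of 0.128.

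The TCA cycle list had 12 of 25 members lower and 1 higher. Pdha1, a subunit of pyruvate dehydrogenase, stood at 11.55, 11.49, 11.39, 11.40 and 11.65 in Rb KO villi, against 11.93, 11.91, 11.93, 12.14 and 12.02 in control villi (−0.49 ± 0.07, adjusted p = 0.000122), with the groups apart. Dlst was lower at −0.47 ± 0.09 and Sdhc, of succinate dehydrogenase, at −0.45 ± 0.09. Idh2, the mitochondrial isocitrate dehydrogenase that makes NADPH, was the 1 higher member, with 9.91, 10.07, 10, 10.15 and 10.55 in Rb KO villi, against 9.04, 8.34, 8.71, 9.27 and 8.67 in control villi (1.33 ± 0.19, adjusted p = 8.51e-05). Its second probe set had the opposite sign. With the GAPDH reading as a covariate 7 members were lower.

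Of 12 gluconeogenesis genes 5 were lower and 0 higher in limma, also at an unadjusted p under 0.05, with 3 lower when the GAPDH reading was a covariate. Pck1, the first committed enzyme, stood at 7.97, 10.34, 9.68, 9.13 and 8.85 in Rb KO villi, against 11.69, 11.71, 11.64, 12.17 and 10.33 in control villi (−2.31 ± 0.47, adjusted p = 0.00157). Rb KO array 2 and control array 5 met near 10.3, and Pck1 did not pass with the GAPDH reading as a covariate (−1.51, adjusted p = 0.122). Fbp1, a later enzyme of the path, was lower at −0.91 ± 0.16 (adjusted p = 0.000612), Slc37a4 at −0.67 ± 0.13, Gpd1 at −0.48 ± 0.08 and Gpt at −0.29 ± 0.09.

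In glycolysis 6 of 24 members were higher and 4 lower. The fructose bisphosphate aldolases moved in opposite directions: Aldoa was higher by 0.39 ± 0.09 (adjusted p = 0.00317) and Aldoc lower at −1.70 ± 0.17 (adjusted p = 1.89e-06), with 8.17, 8.54, 8.27, 8.91 and 8.90 in Rb KO villi, against 9.71, 10.59, 10.16, 10.42 and 10.42 in control villi. The phosphofructokinase Pfkp was higher by 0.41 ± 0.07 and its paralog Pfkl lower at −0.36 ± 0.13. The glucose carrier Slc2a1 was higher by 0.55 ± 0.10, and the fructose and pyruvate kinases Khk (−0.31 ± 0.10) and Pklr (−0.65 ± 0.17) were lower. Pfkl, Khk and Pklr were picked after their values were seen, and 3 members were higher with the GAPDH reading as a covariate.

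**Figure D5:**
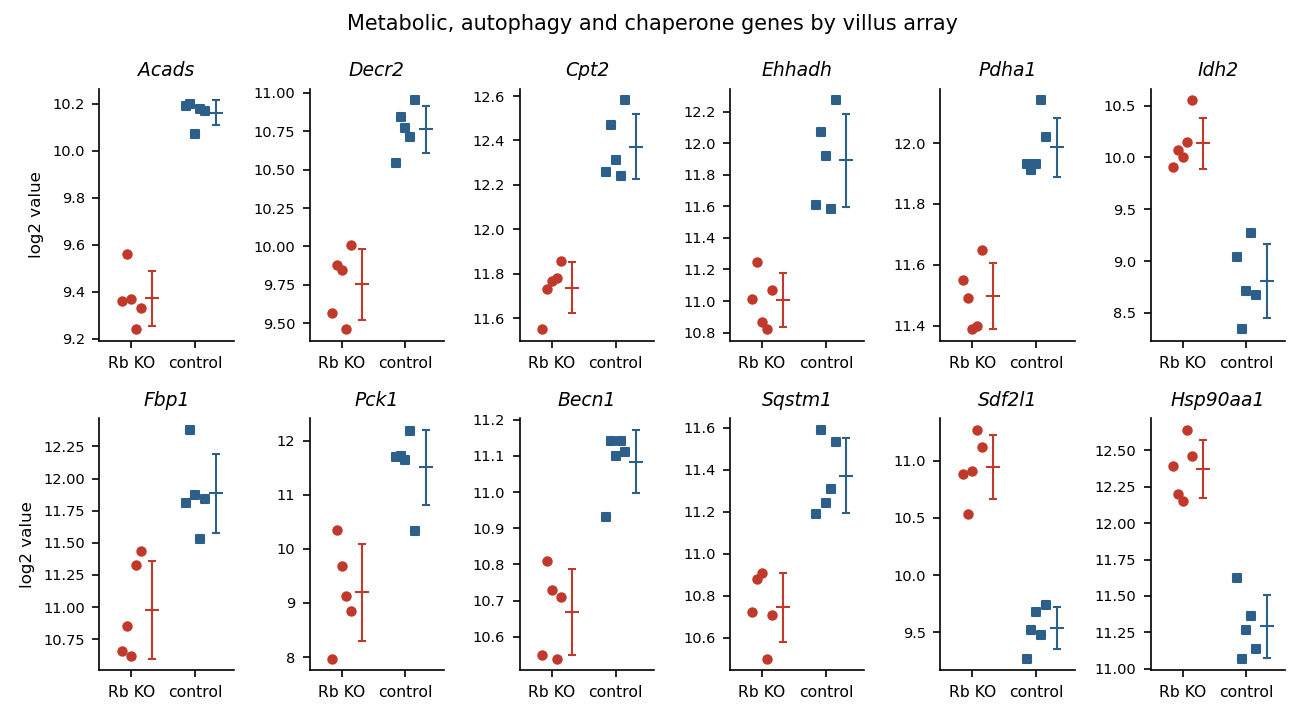
Log2 levels on each array of Rb KO villi (left in each panel) and control villi (right) for genes of fatty acid oxidation (Acads, Decr2, Cpt2, Ehhadh), the TCA cycle (Pdha1, Idh2), gluconeogenesis (Fbp1, Pck1), autophagy (Becn1, Sqstm1) and chaperones (Sdf2l1, Hsp90aa1), with group mean ± SD beside the points; axes do not start at 0 and differ between panels. Idh2, Sdf2l1 and Hsp90aa1 are higher and the other genes lower in Rb KO villi, and only Pck1 has overlapping groups.

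Of 60 oxidative phosphorylation genes 3 were higher and 5 lower, with a median of −0.05, the higher ones being Ndufa8 (0.51 ± 0.08), Cox7c (0.37) and Cox7a2 (0.13) and the lower ones Ndufa1 (−0.32 ± 0.06), Uqcrfs1 (−0.28), Atp5a1 (−0.18), Ndufs7 (−0.17) and Uqcrc1 (−0.16). The lower count was 3 without Rb KO array 1 or 2 or control array 2 or 4, 2 without Rb KO array 3 or control array 3 or 5, and 9 without Rb KO arrays 4 and 5. Mitochondrial ribosome and import genes were higher in 15 of 76 cases and lower in 2, Mrps24 (−0.44) and Tomm70a (−0.20), with a median of 0.19. Tfam, which packages mitochondrial DNA, was higher by 1.01 ± 0.12 (adjusted p = 1.34e-05), and Timm50, of the import channel, by 1.08 ± 0.17. That count is unsure, since 23 of the 76 genes were higher without control array 4 and 31 without control arrays 1 and 4.

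Nucleotide and one-carbon genes held both higher and lower members. The median of the purine and pyrimidine genes was 0.274, against 0.131 with the 9-gene crypt score and 0.153 with the 3-gene score. That of the folate and one-carbon list was 0.006. Of 21 purine and pyrimidine genes 7 were higher and 1 lower, the guanylate kinase Guk1 (−0.31 ± 0.08), and the higher count was 11 without control array 4 and 4 without control array 2, control array 3 or Rb KO array 5. Ctps, which makes CTP, stood at 9.30, 8.81, 8.97, 9.42 and 9.36 in Rb KO villi, against 7.52, 7.31, 7.62, 8.18 and 7.26 in control villi (1.6 ± 0.18, adjusted p = 7.96e-06). In the folate pathway 5 of 22 members were higher, the mitochondrial Mthfd2 (1.59 ± 0.16), Ahcy (1.09 ± 0.21), Mthfd1 (0.95 ± 0.17), Mtrr (0.53) and Shmt1 (0.41). The 4 lower members included Aldh1l1, which burns formyl groups (−1.07 ± 0.15), and both folate carriers Slc19a1 (−1.04 ± 0.17) and Slc46a1 (−0.92 ± 0.18), besides Mat2b (−0.47 ± 0.08). Among 7 polyamine genes Oaz2 was lower (−0.24) and 0 were higher in limma, also at an unadjusted p under 0.05.

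Genes of lipid supply moved little as groups. In the list of cholesterol synthesis and uptake 3 of 21 genes were higher, Pmvk (0.67 ± 0.11), Idi1 (0.43) and Ebp (0.27), and Stard4 was lower (−0.54). The higher count was 8 without Rb KO array 1, 6 without Rb KO array 3 and 1 without Rb KO array 4 or 5. The cholesterol score was 0.541 and 0.588 on Rb KO arrays 4 and 5 and −0.135 to −0.056 on the other Rb KO arrays, against −0.048 to 0.070 in control villi, and those 2 arrays are the ones that stood apart in the clock index. In fat absorption 2 of 36 genes were higher and 4 lower. Mogat1, an acyltransferase of fat resynthesis, was higher by 1.25 ± 0.16 (adjusted p = 3.18e-05) while its paralog Mogat2, the main intestinal form, was lower at −0.22 ± 0.06. The fatty acid carrier Cd36 (−0.68 ± 0.17), the lipase Lipe (−0.65 ± 0.14) and the colipase Clps (−0.72 ± 0.14) were lower, and Ces2a was higher (0.40).

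Of 32 sugar and amino acid transporters 12 were lower and 4 higher. Slc5a4b, a relative of the glucose transporter SGLT1, stood at 10.19, 10.68, 11.07, 11.64 and 11.38 in Rb KO villi, against 12.50, 12.54, 12.54, 12.33 and 12.30 in control villi (−1.45 ± 0.22, adjusted p = 0.000131). The sugar transporter Slc5a9 was lower at −0.88 ± 0.12, whereas the higher members carry amino acids and nucleosides into cells in general, namely Slc38a2 (0.69 ± 0.10), Slc29a1 (0.79 ± 0.13), Slc38a1 (0.71) and Slc1a5 (0.37). With the GAPDH reading as a covariate 6 transporters were lower.

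Of 43 genes for bile acids, vitamins and metals 14 were lower and 3 higher, the transferrin receptor Tfrc (1.07 ± 0.39), the vitamin C carrier Slc23a1 (0.72) and the riboflavin carrier Slc52a3 (0.33 ± 0.06). The copper carrier Slc31a1 was lower at −0.69 ± 0.11 and the biotin carrier Slc5a6 at −0.73 ± 0.13. The metallothioneins Mt1 (−1.51 ± 0.38, adjusted p = 0.00721) and Mt2 (−1.59 ± 0.52, adjusted p = 0.0291) were lower, picked after their values were seen. The lower count was 8 with the GAPDH reading as a covariate. Mt1 stood at 10.94, 10.41, 10.77, 11.30 and 10.95 in Rb KO villi, against 11.02, 12.80, 11.84, 12.82 and 13.42 in control villi, and control array 1 lay within the Rb KO range.

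Ion and water transport had 9 of 42 members lower and 5 higher. Aqp11, an aquaporin of the endoplasmic reticulum, was lower at −1.05 ± 0.14 (adjusted p = 3.38e-05). Both phosphate carriers Slc20a1 (0.77 ± 0.16) and Slc20a2 (0.39 ± 0.08), the guanylin gene Guca2a (0.95), the potassium channel Kcnn4 (0.78) and the carbonic anhydrase Car13 (0.52) were higher. The higher count was 3 without Rb KO array 1, Rb KO array 4 or control array 3, and the lower count was 5 without Rb KO array 1.

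Brush border hydrolases were lower in 9 of 26 cases and higher in 1, Dpp4 (0.35 ± 0.10). Ace, which trims peptides, was lower at −1.09 ± 0.18 (adjusted p = 0.000297), Tmprss15, which activates trypsin, at −1.09 ± 0.27 and Mme at −0.37 ± 0.07. Of 32 microvillus and cytoskeleton genes 11 were lower and 4 higher. The packing protein Ush1c was lower at −0.63 ± 0.10, the actin nucleator Cobl at −0.58 ± 0.09 and the scaffold Pdzk1 at −0.67 ± 0.10, while the keratins Krt18 (0.51 ± 0.08) and Krt19 (0.64) and the spectrins Sptan1 (0.20) and Sptbn1 (0.19) were higher. With the GAPDH reading as a covariate 4 hydrolases were lower, and without Rb KO arrays 4 and 5 the lower counts were 5 hydrolases and 6 microvillus genes. Without Rb KO array 4 alone 7 microvillus genes were lower.

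Of 31 cytochrome P450 genes 13 were lower and 0 higher in limma, with 2 higher at an unadjusted p under 0.05, and a median of −0.31. Cyp2c55 stood at 8.47, 9.12, 8.92, 9.76 and 9.35 in Rb KO villi, against 10.77, 10.93, 10.74, 10.31 and 12 in control villi (−1.83 ± 0.29, adjusted p = 0.000207), with the groups apart. Cyp4v3 was lower at −0.68 ± 0.08 and Cyp4f13 at −1.24 ± 0.24. Of 47 conjugation and efflux genes 15 were lower and 1 higher, Mgst3 (0.22), and the glutathione transferase Gstt3 was lower at −0.83 ± 0.09 (adjusted p = 5.65e-06) and the glucuronosyltransferase Ugt2a3 at −0.67 ± 0.08. Under the GAPDH covariate 7 P450 genes were lower.

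In amino acid breakdown and the urea cycle 8 of 35 genes were lower and 3 higher, the transsulfuration enzyme Cth (1.26 ± 0.42), Kyat1 (0.63) and Glul (0.27). Bckdha, of branched-chain amino acid breakdown, was lower at −0.69 ± 0.08 (adjusted p = 1.09e-05), its partner Dbt at −0.57 ± 0.14 and Aldh6a1, of valine breakdown, at −1.44 ± 0.14 (adjusted p = 1.89e-06). Without Rb KO array 1 the lower count was 5. Aldh6a1 had 7.15, 6.96, 6.77, 7.37 and 7.18 in Rb KO villi, against 8.41, 8.30, 8.61, 8.84 and 8.46 in control villi.

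Lists of villus cell identity and junctions held called members at shares near or below those of all genes (14.7% higher, 15.8% lower). The largest of these shares was 19.0% higher, in villus tip genes. Of 39 enterocyte transcription factors 5 were higher and 5 lower, with a median of 0.05. The higher ones were Id1 (0.52 ± 0.09), Id2 (0.51), Id3 (0.57 ± 0.13), Foxa1 (0.42) and Foxa2 (0.23), and the lower ones the nuclear receptors Esrra (−0.25), Vdr (−0.64), Ppara and Hnf4g (−0.64) with the coactivator Ppargc1a (−0.43). Without Rb KO arrays 4 and 5 the lower count was 1, without control array 2 it was 2 and without Rb KO array 4 it was 3. Among 21 villus tip genes Cdkn1a, the inhibitor p21 (0.87 ± 0.10), Lgals3 (0.58 ± 0.11), Pmp22 (1.63 ± 0.42) and S100a10 (0.24) were higher and Xpnpep2 (−0.71) and Junb (−0.47) lower. Among 14 lower villus genes Il18 was higher (0.56 ± 0.16) and 0 were lower in limma, with 2 lower at an unadjusted p under 0.05. Tight junction genes had 0 of 26 past the threshold in limma, with 0 higher and 2 lower at an unadjusted p under 0.05, the smallest adjusted p being 0.0742 for Cldn12. Of 36 adhesion genes 3 were higher, Cd9 (0.54 ± 0.14), Itga6 (0.40) and Cd44 (0.68), and 4 lower, Cd151 (−0.28), Zyx (−0.36), Jup (−0.32) and Ctnnd1 (−0.27).

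Signal pathways of the crypt and villus axis held called members at shares near or below those of all genes (14.7% higher, 15.8% lower). Wnt targets and regulators had 4 of 31 higher, Ets2 (0.47 ± 0.07), Prox1 (0.31), Cd44 and Znrf3 (0.53), and 3 lower, Rnf43 (−0.61), Tnfrsf19 (−0.28) and Fzd7 (−0.43). The Wnt count of higher genes was 1 without Rb KO array 4 or control array 3 or 5 and 2 without Rb KO array 1 or 2 or control array 2, and that of lower genes 1 without control array 2 or 5. In the BMP and hedgehog list 5 of 32 were higher, Id1, Id2, Id3, Id4 (0.34 ± 0.08) and Bmp8b (0.74), and Gli3 was lower (−0.25). That share, 15.6% higher, is near the share of all genes, although the 4 genes of the Id family, which answer to BMP signals, were all higher. In the EGF family Phlda1 was higher (0.65) and Erbb2 lower (−0.30) of 23. Notch and lineage regulators had 2 of 30 higher, Jag2 (0.24) and Nrarp (0.57), and 4 lower, Dtx1 (−0.56 ± 0.10), Hes6 (−0.36 ± 0.08), Rfng (−0.31) and Dll4 (−0.35). In the TGF-beta and activin list 4 of 23 were higher, Acvr2b (0.58 ± 0.12), Tgfbr1 (0.35), Smad2 (0.30) and Skil (0.36), and 0 lower in limma, with 2 lower at an unadjusted p under 0.05.

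Of 23 stem cell markers 3 were higher, Bmi1 (0.47 ± 0.08, adjusted p = 0.00054), Prom1 (0.68 ± 0.18) and Znrf3, and 4 lower, Rnf32 (−0.49 ± 0.07, adjusted p = 5.03e-05), Hopx (−0.54 ± 0.09, adjusted p = 0.000222), Rnf43 and Tnfrsf19. The list score ranged from −0.184 to 0.386 in Rb KO villi, against −0.285 to 0.461 in control villi. Of 11 Paneth cell markers 1 was higher, Defa3 (0.51 ± 0.16), and 0 lower in limma, with 3 higher and 1 lower at an unadjusted p under 0.05. Without control array 4 the higher count was 4, without Rb KO array 2 it was 2, and without Rb KO array 5, control array 1 or control array 2 it was 0. Leaving out 1 array gave list medians from 0.17 to 0.58, beside 0.35 with all arrays and 0.89 with the GAPDH reading as a covariate. The Paneth score ranged from −0.033 to 0.812 in Rb KO villi, against −0.631 to 1.018 in control villi.

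Goblet and tuft cell markers were called at shares near or below those of all genes (14.7% higher, 15.8% lower). Enteroendocrine markers were lower at a share of 23.7%. Goblet cell markers were higher in 5 of 34 cases, Agr2 (0.73 ± 0.15), Ern2 (0.47 ± 0.12), Guca2a, Sytl2 (0.27) and Ccl9 (0.66), and lower in 0 in limma, with 3 lower at an unadjusted p under 0.05. The higher count was 12 without control array 1. Tuft cell markers had 4 of 23 lower, Ltc4s (−0.63 ± 0.11), Fyb (−0.39), Plcg2 (−0.45) and Hpgds (−0.25), and Krt18 higher. Enteroendocrine markers were lower in 9 of 38 cases and higher in 0 in limma, also at an unadjusted p under 0.05. Gcg, the gene of glucagon-like peptides, stood at 5.81, 5.94, 5.36, 6.84 and 6.38 in Rb KO villi, against 8.25, 7.75, 7.71, 7.83 and 7.18 in control villi (−1.68 ± 0.23, adjusted p = 5.31e-05), with the groups apart. Without Rb KO array 2 the lower count was 15. The monoamine transporter Slc18a1 of enterochromaffin cells was lower at −0.75 ± 0.10.

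Lymphocyte markers were the cell type list with the most lower members. T cell and intraepithelial lymphocyte markers were lower in 27 of 41 cases and higher in 0 in limma, also at an unadjusted p under 0.05, and the list score ranged from −0.632 to −0.255 in Rb KO villi, against −0.223 to 0.178 in control villi. Itgae, the integrin that anchors these cells in the epithelium, stood at 9.82, 10.01, 9.72, 9.21 and 9.53 in Rb KO villi, against 10.29, 10.78, 10.54, 10.25 and 10.42 in control villi (−0.80 ± 0.14, adjusted p = 0.000581). Cxcr6 was lower at −0.87 ± 0.11 and Cd244a at −0.69 ± 0.10. Without Rb KO arrays 4 and 5, 13 of the 41 genes were lower. Mast cell markers were lower in 5 of 10 cases, Mcpt1 (−1.52 ± 0.42), Mcpt2 (−1.16), Cpa3 (−0.58), Ms4a2 (−0.51) and Mcpt4 (−0.41), with 0 higher in limma, also at an unadjusted p under 0.05. With the GAPDH reading as a covariate 0 of them passed, 1 did without Rb KO arrays 4 and 5, 2 without control array 3 and 3 without Rb KO array 1.

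Other cell types gave calls at shares below those of all genes (14.7% higher, 15.8% lower). B cell and plasma cell markers had 3 of 20 lower, Tnfrsf13b (−0.48 ± 0.09), Irf4 (−0.22) and Xbp1 (−0.20), and macrophage and dendritic cell markers 1 of 29, Ctss (−0.60 ± 0.15). Fibroblast and telocyte markers had 0 of 30 past the threshold in limma, with 0 higher and 1 lower at an unadjusted p under 0.05, Foxl1 having the smallest adjusted p, 0.121. Smooth muscle markers had 2 of 14 higher, Hspb6 (0.40) and Smtn (0.32), and endothelial and blood cell markers 1 of 13 higher, Prox1, and 1 lower, Egfl7 (−0.30). Enteric neuron and glia markers had 1 of 12 lower, Ret (−0.38 ± 0.09), and exocrine pancreas genes 1 of 15, Clps.

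In the class I list 9 of 19 were lower and 1 higher, the regulator Nlrc5 (1.09 ± 0.23). H2-Q2 stood at 3.28, 3.36, 3.69, 3.29 and 3.59 in Rb KO villi, against 3.38, 12.39, 12.22, 11.87 and 12.53 in control villi (−7.04 ± 1.96, adjusted p = 0.0124). Control array 1 lay with the Rb KO arrays, so the groups overlapped. H2 genes differ between mouse strains, the labels give no strain, and whether strain differed between these arrays was not tested, so neither H2-Q2 nor the H2 genes of these lists can be read as a change in antigen presentation alone. The peptide transporter Tap1 was lower at −0.62 ± 0.13, and H2-D1 at −0.38 ± 0.10 had the opposite sign, 0.62, when all its probe sets were averaged.

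In the class II list 6 of 13 were lower and 1 higher, Ifi30 (0.19). H2-DMa, which loads peptides, stood at 7.09, 6.98, 7.55, 6.88 and 6.82 in Rb KO villi, against 8.99, 8.56, 7.64, 7.75 and 9.82 in control villi (−1.49 ± 0.35, adjusted p = 0.00459). Control arrays 3 and 4 were close to the Rb KO range. Without Rb KO arrays 4 and 5, 3 class I genes and 1 class II gene were lower. The class I count was 5 without Rb KO array 2, Rb KO array 4 or control array 2, and the class II count was 3 without Rb KO array 4 or 5 or control array 1, 2 or 5. Of 47 interferon-stimulated genes 13 were lower and 2 higher, Ifit2 (0.50 ± 0.12) and the RNA sensor Ifih1 (0.34), with 3 lower when Rb KO arrays 4 and 5 were left out, 8 without Rb KO array 2 or Rb KO array 4 and 7 without control array 2. The guanylate-binding protein Gbp6 was lower at −0.89 ± 0.16. Antimicrobial defence had 2 of 35 higher, Ccl28 (1.00 ± 0.27) and Il18, and 3 lower, Tlr3 (−0.41 ± 0.08), Nod1 (−0.37 ± 0.08) and Reg4 (−0.49). Complement had 3 of 21 lower, C8g (−1.25 ± 0.20, adjusted p = 0.000211), Cd55 (−0.83) and Cd59a (−0.90).

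Of 36 p53 targets 9 were higher and 9 lower. Ppm1d, a phosphatase that turns p53 signals off, was higher by 1.02 ± 0.13 (adjusted p = 2.36e-05), Ddb2 by 0.87 and Pidd1 by 0.50 ± 0.06, whereas the sestrins Sesn1 (−0.50 ± 0.11), Sesn2 (−0.47 ± 0.13) and Sesn3 (−0.47 ± 0.08), which restrain growth signals, were all lower and were picked after their values were seen. Of 38 apoptosis genes 5 were higher, Bcl2l11, the killer protein BIM (0.94 ± 0.13, adjusted p = 5.89e-05), Casp2 (0.49 ± 0.11), Bcl2l2 (0.28), Casp8 (0.38) and Xiap (0.25), and 4 lower, the inhibitors Birc3 (−0.99 ± 0.11, adjusted p = 8.49e-06) and Cflar (−0.52 ± 0.10) with Bak1 (−0.30) and Endog (−0.23). Bcl2l11 stood at 10.36, 10.45, 10.21, 9.87 and 10.15 in Rb KO villi, against 9.05, 9.44, 9.45, 9.06 and 9.35 in control villi.

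Of 34 genes of the unfolded protein response 14 were higher and 2 lower, Derl1 (−0.34) and Xbp1. Sdf2l1, a chaperone partner in the endoplasmic reticulum, stood at 10.88, 10.53, 10.91, 11.27 and 11.12 in Rb KO villi, against 9.27, 9.52, 9.68, 9.48 and 9.74 in control villi (1.41 ± 0.13, adjusted p = 8.31e-07). Creld2 was higher by 1.35 ± 0.17 and Hspa5, the main chaperone there, by 0.53 ± 0.10. Of 35 heat shock chaperones 15 were higher and Dnajb4 was lower (−0.53 ± 0.11). Hsp90aa1, the inducible form of HSP90, was higher by 1.07 ± 0.11 (adjusted p = 4.05e-06) and its activator Ahsa1 by 0.57 ± 0.09. The heat shock count was 6 without control array 2 7 without Rb KO array 4 or control array 5, 8 without control array 3 and 9 without Rb KO array 5, while the count for the unfolded protein response did not move by more than 1.5 times when an array was left out.

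Autophagy and lysosome genes were lower in 21 of 44 cases and higher in 0 in limma, also at an unadjusted p under 0.05, with a median of −0.25. Becn1, which starts autophagosomes, stood at 10.55, 10.81, 10.73, 10.54 and 10.71 in Rb KO villi, against 10.93, 11.14, 11.10, 11.14 and 11.11 in control villi (−0.42 ± 0.06, adjusted p = 0.000175), with the groups apart. Its lipid kinase partner Pik3c3 was lower at −0.58 ± 0.09, the cargo receptor Sqstm1 at −0.63 ± 0.11 and the conjugation enzyme Atg10 at −0.58 ± 0.09. In the lysosome Lamp2 (−0.57 ± 0.11) and the proteases Ctsb (−0.51 ± 0.09) and Ctsd (−0.43 ± 0.09) were lower, picked after their values were seen, as was Map1lc3b (−0.48 ± 0.10). Sqstm1 had 1 of 2 probe sets in this direction, and 12 of the 44 genes were lower with the GAPDH reading as a covariate.

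Of 32 oxidative stress genes 10 were lower and 3 higher, Prdx4, the transketolase Tkt (0.49 ± 0.06, adjusted p = 2.05e-05) and Taldo1 (0.18). The mitochondrial thioredoxin reductase Txnrd2 was lower at −0.59 ± 0.07 and Gclm, of glutathione synthesis, at −0.62 ± 0.12, and with the GAPDH reading as a covariate 5 were lower. Clock genes had 4 of 22 higher, Wee1 (0.60), Clock (0.25), Csnk1e (0.20) and Cry1 (0.45), and the repressor Nr1d1 lower (−0.76 ± 0.11, adjusted p = 0.000115). Immediate early genes, a reading of handling, had 3 of 32 higher, Ier3 (0.44), Gadd45b (0.44) and Dusp1 (0.70), and 2 lower, Rhob (−0.76) and Junb.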

How the data were processed

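The deposited log2 values of 45101 probe sets were used as the authors gave them. They ran from 2.64 to 15.21, and how they were background-corrected and normalized is not given in the sources used here. Medians lay between 6.28 and 6.34 on villus arrays and between 6.67 and 6.73 on crypt arrays, so tests were kept within villi. Arrays have no read depth, and precision is set by 5 arrays a group.

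The platform annotation gave 1 symbol to 34958 probe sets, several to 932 and none to 9211, and 34754 were found by ID in the RefSeq gene table. The probe set with the highest mean stood for each of 18194 genes, and 14548 genes above the 30th percentile of probe-set means (5.33) were tested. limma 3.58.1 in R 4.3.3 fitted the 15 villus arrays with genotype as the only term. The fit was tested on simulated data. With 200 of 14548 genes altered it recovered 78% of 100 genes changed 1.5-fold and 95% of 100 changed 2-fold, with 10 false calls. The simulated noise was drawn separately for each gene and array, and far fewer genes were altered than the 30.5% called in the data. These figures are therefore no error rate of the real calls. Exact permutation tests were run with scipy 1.17.1.

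Of 2600 entries in 67 gene lists 2249 were tested, 59 of them found through an older symbol. The members and lists were chosen with earlier results of these data known. Named genes were the targeted gene, 9 crypt markers and the cell cycle genes set beside them. Up to 5 members of smallest p in each list were named too. The 20 largest differences in each direction outside the cell cycle lists were taken with the groups apart and without clone or predicted-gene symbols. Genes picked after their values were seen were added. The last include Acadvl, Ahcy, Atp5a1, Bak1, Car13, Casp8, Cd44, Ces2a, Cox7a2, Cth, Ctnnd1, Derl1, Dll4, Dpp4, Endog, Foxa2, Glul, Hells, Hnf4g, Id2, Ifih1, Kcnn4, Krt19, Kyat1, Mgst3, Mrps24, Mtrr, Ppargc1a, Shmt1, Slc1a5, Slc23a1, Slc29a1, Slc38a1, Slc46a1, Sptan1, Sptbn1, Taldo1, Tfrc, Tomm70a, Uqcrc1, Xiap and Znrf3. Alternatives covered probe sets, filters, scaling, the arrays fitted, covariates and the threshold.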

Additional observations from a re-analysis of the deposited data

Results flagged for a closer look

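Among 634 groups of 5 arrays, both genotypes of 317 genes named in the text, 25 held an array whose gap to the nearest other array exceeded 0.71 of the group's range. Chance alone marks about 1 group in 20. The widest gap was in H2-Q2, at 3.38 on control array 1 beside 11.87 to 12.53 on the other control arrays, so its difference between genotypes rests on the other 4 control arrays.

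In Rb KO villi Ace stood at 11.77 on array 3, Anxa10 at 6.53 and Stard4 at 11.37 on array 5, and Bcl2l15 at 9.53 on array 2. On array 4 Ascl2 stood at 6.11 and Tgfbr1 at 8.95. On array 5 Hes6 stood at 8.95, Ipo9 at 9.16 and Tmpo at 11.66. On array 1 Cd151 stood at 11.58, Slc2a1 at 8.87 and Tnfrsf19 at 5.07.

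In control villi array 1 stood away in Becn1 at 10.93, in Irf4 at 5.34, in Krt18 at 11.39 and in Ppm1d at 6.02. Array 5 stood away in Gsn at 8.43, in Hadhb at 12.56, in Ipo4 at 8.53, in Pck1 at 10.33 and in Taldo1 at 12.23. Acads stood at 10.07 on array 3, and Fzd7 at 6.39 and Sptan1 at 10.93 on array 4.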

How the results depend on the processing

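Over the alternatives with the threshold kept at 0.05, between 1761 and 2479 genes were higher and between 1522 and 2540 lower in Rb KO villi, and leaving out 1 array gave 1880 to 2385 higher and 1845 to 2384 lower. The lowest count of lower genes, 1522, came with the GAPDH reading as a covariate, and a threshold of 0.01 gave 1340. With the GAPDH reading as a covariate list medians moved to 1.85 for replication, 0.64 for splicing factors, 0.53 for purine and pyrimidine synthesis, −0.13 for polyamine enzymes, −0.10 for amino acid breakdown, 0.21 for goblet, −0.20 for tuft and −0.73 for T cell markers, −0.02 for p53 targets and 0.23 for clock genes. The glycolysis median was 0.08 with the 9-gene crypt score. Without control arrays 1 and 4 medians were −0.44 for gluconeogenesis, 0.25 for lower villus genes and 0.18 for goblet markers, and without Rb KO arrays 4 and 5 they were 0.22 for villus tip genes and 0.11 for p53 targets. The mast cell median was −0.58 with the 50th percentile filter, where fewer genes were tested. Leaving out 1 array gave −0.18 to −0.12 for amino acid breakdown. With the mean of all probe sets the differences of Tgfbr1, H2-D1 and Xiap turned to −0.07, 0.62 and −0.04. Of 382 genes listed for naming, 223 kept their call in every setting. The call was lost by 107 with the GAPDH reading as a covariate, by 84 without Rb KO arrays 4 and 5, by 95 at the threshold of 0.01 and by 22 with the 9-gene crypt score. Same-numbered arrays correlated at −0.039 to 0.4 in their deviations from group means, above 0.1 in 2 of 5 pairs, and 3 of 10 arrays correlated best with their own number, so the numbers were not taken as pairs. A fit with the replicate number as a block gave 2291 higher and 2389 lower genes, among them Lyz1 (adjusted p = 0.0212) and Itln1 (adjusted p = 0.0148). The cause of these shifts was not tested.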
